A study of Mus musculus with 2 samples.

Results

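Late-numbered microRNAs (miRNAs) are here the mouse miRNA genes whose symbol is Mir followed by a number of 1000 or above. Of the 577 such genes in the deposited tables, 8 lie in the imprinted Dlk1-Dio3 stretch of chromosome 12 and were left out. Of the other 569, 258 had no count, 101 had 1 to 4 counts and 210 reached the minimum of 5 counts summed over both libraries. Those 210 genes are the members, out of 1973 genes in the tables. They were chosen by the summed count, so their levels are a description and carry no test. At the lower edge, 13 members stood at a sum of 5 and 17 at a sum of 6, while 15 genes just outside stood at 4 and 21 at 3. The comparison group was the 270 miRNA genes with a number below 1000, outside the same stretch, that reached the same minimum, out of 420.

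The libraries came from midbrain of B6NCrl mouse embryos at 15.5 days of development, male and female tissue combined, with no treatment or altered gene named in the labels. Replicate 1 was a pool of 78 embryos and replicate 2 a pool of 62, and the labels call them biological replicates. The RNA was under 30 bases long. There is 1 group, so no condition can be compared.

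A miRNA is cut from a folded precursor, the hairpin, and guides an Argonaute protein to messenger RNAs that pair with its seed, the stretch near its 5′ end. Numbers were given in the order in which miRNAs were described, so high numbers mostly belong to those found by deep sequencing. Many hairpins lie inside a longer gene, the host, and are transcribed with it. A mirtron is a short intron that folds into a hairpin once it is spliced out and so needs no Drosha cut; in a tailed form only one end of the hairpin is made by splicing.

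The sequences of the 5 highest members are shown first, because these genes held most of the members' counts. They are from RefSeq on GRCm38.p6, written 5′ to 3′, with the seed, bases 2 to 8, in capitals. The tables count reads per gene, so the share of each mature form was not measured.
mmu-miR-1983: cUCACCUGgagcauguuuucu
mmu-miR-1298-5p: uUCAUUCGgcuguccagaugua
mmu-miR-1298-3p: cAUCUGGGcaacugauugaacu
mmu-miR-3099-5p: cCAGCUUCcuuccagcccuug
mmu-miR-3099-3p: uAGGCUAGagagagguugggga
mmu-miR-1251-5p: aCUCUAGCugccaaaggcgcu
mmu-miR-1251-3p: cGCUUUGCucagccaguguag
mmu-miR-1306-5p: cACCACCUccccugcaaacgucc
mmu-miR-1306-3p: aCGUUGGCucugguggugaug

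The hairpins of 4 members that fill a whole intron are shown because their ends carry the clearest pattern in the positions of the members. The capitals mark the first and last bases of the hairpin, which are also the first and last bases of the intron: GU at the start and AG at the end, the usual letters of a spliced intron.
Mir6944: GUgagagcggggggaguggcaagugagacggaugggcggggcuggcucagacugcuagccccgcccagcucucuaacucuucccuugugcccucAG
Mir1981: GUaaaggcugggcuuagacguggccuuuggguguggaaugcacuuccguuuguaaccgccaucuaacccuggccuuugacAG
Mir1224: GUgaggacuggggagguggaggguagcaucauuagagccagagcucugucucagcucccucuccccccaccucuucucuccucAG
Mir3547: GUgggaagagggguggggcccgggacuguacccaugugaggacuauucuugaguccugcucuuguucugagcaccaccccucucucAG

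In a larger set of members only the 3′ end of the hairpin met an intron end. Most of their 3p mature forms, from the 3′ arm, end in the same AG, marked here for 3 members; an exception among the highest is given further on.
mmu-miR-3097-3p: cucagaccuuucuaccugucAG
mmu-miR-6897-3p: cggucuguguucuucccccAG
mmu-miR-7026-3p: ugugcuuucuggucuuggcuuAG

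Sense reads of miRNA genes numbered 3429704 in replicate 1 and 5752476 in replicate 2. Levels are given as CPM, the count scaled to a common size of these totals, on which a single read of replicate 1 weighs 0.292 CPM and one of replicate 2 weighs 0.174 CPM. Reads with several mapping places made up 37.7% and 35.8% of all reads and are tallied apart in the tables. Of the miRNAs taken as neural markers, Mir137 stood at 11192 ± 555 CPM (SD, n = 2) and Mir153 at 3360 ± 191 CPM. Mir128-1 stood at 1447 ± 62.5 CPM, Mir128-2 at 831 ± 121 CPM and Mir9-3 at 484 ± 39.7 CPM. Lower were Mir9-2 at 1.66 ± 0.131 CPM and the 3 Mir124a copies at 0.55 to 3.69 CPM. Reads that map to several places are given to no gene. Levels of miRNAs with named copies, such as Mir124a and Mir9, may thus be incomplete, which was not tested. Endothelial Mir126a stood at 23238 ± 2362 CPM, choroid plexus Mir204 at 1313 ± 260 CPM, red cell Mir451a at 145 ± 11.5 CPM and liver Mir122 at 59.6 ± 23.3 CPM. White cell Mir223 stood at 158 ± 4.32 CPM. For Mir142, the other white cell marker chosen, only Mir142b was found, and it had no count. That lack of counts is not read as a lack of white cells. Of muscle miRNAs, Mir1a-1, Mir133a-1 and Mir133a-2, which have named copies, had no count, while Mir208b stood at 19.0 and 47.6 CPM in replicates 1 and 2 and Mir206 at 11.7 and 16.0 CPM; Mir208b and Mir206 were looked up after the other values were seen. Fewer cells of a type and less RNA per cell cannot be told apart in such tissue.

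The late-numbered miRNAs were a small part of the miRNA counts. They held 20102 sense counts in replicate 1, or 0.586% (95% exact Clopper-Pearson interval 0.578 to 0.594), and 35362 in replicate 2, or 0.615% (0.608 to 0.621). The mean was 0.6004 ± 0.0202% (SD, n = 2), against 78.7 ± 0.239% for the lower-numbered group. The intervals cover counting error only and do not overlap. The median level over members was 1.76 CPM, against 188 CPM over lower-numbered genes. At least 10 CPM was reached by 37 of 210 members (17.6%) and by 217 of 270 lower-numbered genes (80.4%). At least 1000 CPM was reached by 1 member and by 68 lower-numbered genes.

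The counts were concentrated in few members. Mir1983 alone held 39.2% of them, the 5 highest held 72.1% and the 25 highest held 91.4%. Without Mir1983 the members' share was 0.364 ± 0.0203% of all sense counts. At the other extreme, 10 members had no count in replicate 1 and 2 had none in replicate 2, where 3 counts, taken as the floor, are worth 0.875 CPM and 0.522 CPM.

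**Figure D1:**
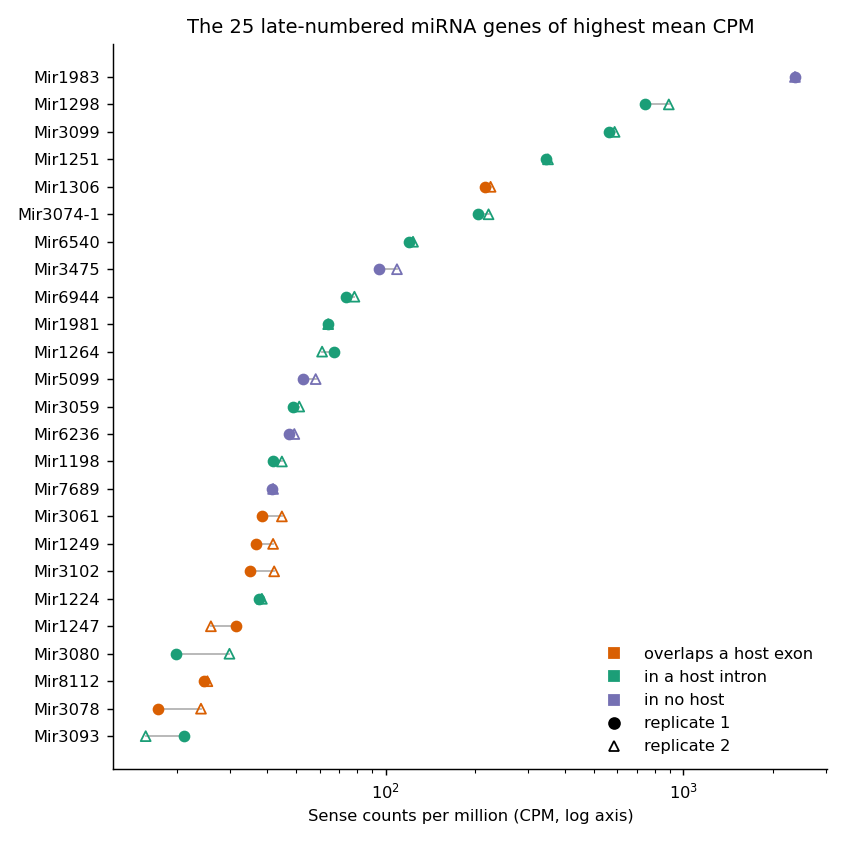
Level of the 25 highest late-numbered miRNA genes in each library. The horizontal axis is sense CPM on a log scale, filled circles are replicate 1, open triangles are replicate 2, and colour gives the place relative to a host gene. Mir1983 lies near 2369 CPM in both libraries, and the widest gaps between the libraries are at the low end, in Mir3080, Mir3078 and Mir3093.

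Mir1983 (ENSMUSG00000088148.1, GRCm38 chr13:21896918-21897049, minus strand) had 8126 counts in replicate 1 and 13625 in replicate 2. Its level was 2369 CPM in both libraries. The gene lies in no exon or intron of another gene on its strand. Its annotated hairpin of 132 bases holds the letters GUUCGAGCC, which fit GTTCGANNC, the core of the B box, an element inside transfer RNA genes that RNA polymerase III uses. Mir5100 was the other member with these letters on the sense strand, at 2 of 210 members (0.952%), against 1 of 270 lower-numbered genes and 20 of 1894 miRNA genes with a sequence (1.06%). On the reverse strand the letters were found in no member, in no lower-numbered gene of the comparison group and in 25 of the 1894 genes. The share among members was therefore close to that among all genes. This share does not bear on where the Mir1983 reads came from. Apart from these letters, likeness of Mir1983 to a transfer RNA gene was not tested. The matching hairpins follow, with the B box letters in capitals.
Mir1983: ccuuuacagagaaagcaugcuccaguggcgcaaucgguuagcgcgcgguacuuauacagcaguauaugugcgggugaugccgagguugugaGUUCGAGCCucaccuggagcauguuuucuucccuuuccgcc
Mir5100: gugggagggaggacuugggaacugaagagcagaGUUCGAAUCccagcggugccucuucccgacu

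Introns of Htr2c, the serotonin 2C receptor gene on the X chromosome, held 3 members, the one host gene that held more than 1. Mir1298 (chrX:147064905-147065002) had 2557 counts in replicate 1 and 5138 in replicate 2, or 746 and 893 CPM. It was the highest of the miRNA genes counted in this host. Mir1264 (chrX:147010601-147010686) had 230 and 352 counts, or 67.1 and 61.2 CPM. Mir1912, which lies 1073 bases from Mir1264, had 4 and 12 counts, or 1.17 and 2.09 CPM. The lower-numbered genes of the same host were Mir448 at 129 ± 11.4 CPM and Mir764 at 2.56 ± 0.317 CPM, so the order from high to low was Mir1298, Mir448, Mir1264, Mir764 and Mir1912. The values of the 3 higher genes did not overlap between genes, and those of Mir764 and Mir1912 rested on few reads, with 8 and 16 counts in Mir764. Mir1264 stood 39.4 times above Mir1912 on the CPM scale although they lie within the same host and close together.

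Mir3099 (chr7:6803587-6803670), in an intron of Usp29, an imprinted gene, had 1925 and 3379 counts, or 561 and 587 CPM. Mir1251 (chr10:92137140-92137223) lies in an intron of Rmst, a long noncoding RNA known for its part in neuronal differentiation and as a marker of midbrain dopaminergic precursors. It had 1186 and 2019 counts, or 346 and 351 CPM. Mir135a-2, a lower-numbered miRNA of the same host 64954 bases away, had 323 and 376 CPM. The mean levels of this pair were 348 ± 3.66 CPM and 349 ± 37.2 CPM, a difference smaller than the spread between the libraries. Mir135a-2 has a named copy, Mir135a-1, at 472 CPM, and reads that map to several places are given to no gene, so the level of Mir135a-2 may be incomplete; this was not tested.

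Mir1306 (chr16:18284239-18284317) overlaps coding sequence of Dgcr8, which encodes the partner of Drosha in cutting hairpins. It had 741 and 1295 counts, or 216 and 225 CPM. Gm24572, for which RefSeq gives the synonym Mir3618, lies 232 bases from it on the same strand and had 1 and 3 counts. Mir6540 (chr16:42303362-42303469), in an intron of Gap43, a growth cone protein gene of developing axons, had 411 and 711 counts, or 120 and 124 CPM. Mir3475 (chrX:140310948-140311012), in no host, had 327 and 628 counts, or 95.3 and 109 CPM. Mir1306, Mir6540 and Mir3475 did not pass the exact binomial test between the libraries.

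Mir3074-1 (chr13:63301199-63301283, minus strand) lies in an intron of Fancc, a gene of the Fanconi anaemia DNA repair pathway, and opposite to Mir24-1. It had 702 and 1275 counts, or 205 and 222 CPM. A named copy, Mir3074-2, was not among the genes counted under that name. Reads of Mir3074-1 that also map elsewhere would be given to no gene, so its level may be incomplete, which was not tested. The mature miR-3074-5p pairs along 20 of its 22 bases with miR-24-3p, which is read from the other strand; the complementary stretch is in capitals.
mmu-miR-3074-5p: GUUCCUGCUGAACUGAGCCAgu
mmu-miR-24-3p: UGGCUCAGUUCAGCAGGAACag

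Mir24-1 has no row of its own in the tables under that name. The opposite-strand column of Mir3074-1 held 28 counts in replicate 1 and 36 in replicate 2, few beside its sense counts. Mir24-1 has a named copy, Mir24-2, at 65.5 CPM, and reads that map to several places are given to no gene. The opposite-strand counts may therefore be incomplete and cannot rank Mir24-1 against Mir3074-1, which was not tested. Only 6 of the 210 members had any opposite-strand count.

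Other hosts held members at lower levels. Mir3059, in an intron of Mgat4c, stood at 48.7 and 51.3 CPM. Mir1198, in an intron of Gripap1, whose protein binds a scaffold of glutamate receptors, stood at 43.4 ± 2.03 CPM. Mir3105, in an intron of Shank2, a scaffold gene of excitatory synapses, stood lower at 6.94 ± 0.750 CPM, and Mir7666, in an intron of Fgf20, a growth factor gene active in dopaminergic neurons, stood at 7.36 ± 1.55 CPM. Shank2 and Fgf20 were named after these values were seen. Host transcripts were not measured in RNA of this size.

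Mir3078 (chr14:64591185-64591271) overlaps an exon of Mir124a-1hg, the host transcript of Mir124a-1, and lies 443 bases from that miRNA. It had 59 and 138 counts, or 17.2 and 24.0 CPM. Mir124a-1, the best-known miRNA of neurons, had 14 and 19 counts, or 4.08 and 3.30 CPM, so the late-numbered neighbour was 5.58 times higher on the CPM scale and the libraries did not overlap. Mir124a-1 has the named copies Mir124a-2 and Mir124a-3, and reads with several mapping places are given to no gene. Their part in this ratio was not tested. Of the 12 members with another miRNA gene within 10 kb on the same strand, 4 had a lower-numbered one. Of those 4, 3 stood at least as high as each such neighbour: Mir1264, Mir3078 and Mir5132. Mir5132 had 8 and 1 counts, beside 0 and 1 in Mir718. Mir1264 and the exception, Mir1912, were set against the same gene, Mir764. Members had to reach the minimum summed count and the neighbours did not, which favours the members. The tally therefore cannot rank late-numbered against lower-numbered genes.

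Most members lay inside another gene. A host on the same strand was found for 189 of 210 members (90%) and for 196 of 270 lower-numbered genes (72.6%). Exons were overlapped by 53 members (25.2%) and 66 lower-numbered genes (24.4%), and introns held 136 members (64.8%) and 130 lower-numbered genes (48.1%). At 10 CPM or more the intronic shares were 48.6% of 37 members and 48.4% of 217 lower-numbered genes, and the shares inside any host were 81.1% and 72.4%. The hosts differed in kind. Protein-coding genes hosted 182 members (86.7%) and 130 lower-numbered genes (48.1%), and noncoding genes hosted 7 members and 66 lower-numbered genes. At 10 CPM or more the gap was narrower, with protein-coding hosts for 70.3% of members and 50.2% of lower-numbered genes. Noncoding hosts then held 10.8% and 22.1%. Where several hosts overlapped, a protein-coding one was taken first. The 7 members in noncoding hosts were Mir1251, Mir1247, Mir3078, Mir3093, Mir5103, Mir1941 and Mir7211. No test was made, since genes in 1 cluster share a host and are not independent.

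**Figure D2:**
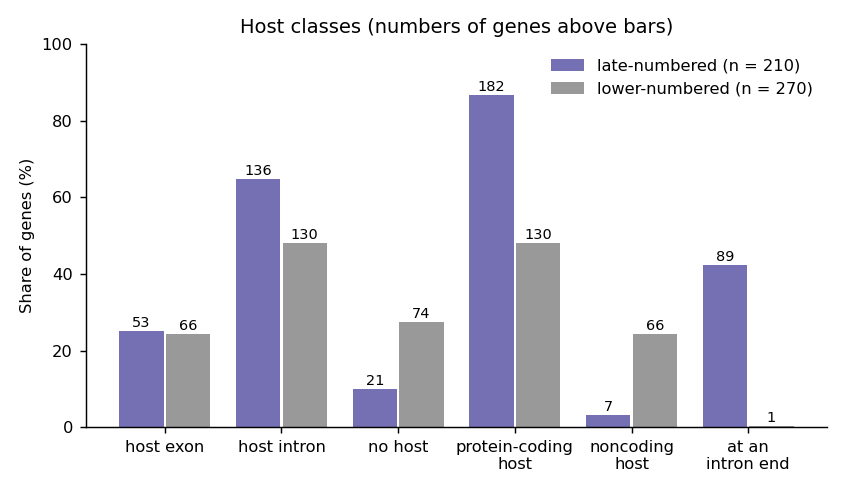
Host classes of the 210 late-numbered and 270 lower-numbered miRNA genes. Bars give the share of genes in percent, with the number of genes on each bar. The widest gaps are in protein-coding hosts, 86.7% against 48.1%, and at intron ends, 42.4% against 0.370%.

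Among the exonic members, 19 overlapped coding sequence, against 3 lower-numbered genes, 18 overlapped untranslated exon parts alone, against 6, and 16 overlapped exons of noncoding transcripts alone, against 53. Mir3061, in the untranslated part of Ppp2ca, the catalytic subunit of protein phosphatase 2A, had 132 and 258 counts, or 38.5 and 44.9 CPM. Mir1249, in a noncoding exon of 5031439G07Rik, stood at 39.3 ± 3.65 CPM. Mir1247 lies in an exon of Dio3os, a noncoding transcript at the edge of the imprinted chromosome 12 domain but outside the stretch left out. It had 108 and 149 counts, or 31.5 and 25.9 CPM. Mir8112, in the untranslated part of Krcc1, stood at 24.8 ± 0.505 CPM. Exonic members had a median of 1.42 CPM, intronic ones 1.76 CPM and the 21 in no host 2.97 CPM. The last group held 44.3% of the members' counts, and Mir1983 alone held 39.2%. After Mir1983 and Mir3475 its highest genes were Mir5099 at 55.5 ± 3.86 CPM, Mir6236 at 48.3 ± 1.51 CPM and Mir7689 at 41.8 ± 0.142 CPM.

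The hairpins of the members met intron ends often. In 89 of 210 members (42.4%) at least 1 end of the annotated hairpin fell within 2 bases of an intron end of a transcript on the same strand, and in 87 of them exactly on it. Of the 270 lower-numbered genes, 1 did so (0.370%): Mir877, which fills an intron of 85 bases in Abcf1, at 74.9 ± 2.01 CPM. Of the 89 members, 10 filled a whole intron, 77 met the 3′ end only and 2, Mir6977 and Mir5617, met the 5′ end only. Among members of at least 10 CPM the count was 6 of 37, against 1 of 217 lower-numbered genes, and among members below 10 CPM it was 83 of 173 (48.0%). With the intron-end members set aside, 100 of 121 (82.6%) still lay inside a host. The intron-end share of late-numbered genes below the minimum count is not given here. The pattern therefore cannot be tied to the genes that were counted.

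Among the intron-end members, 4 that fill a whole intron were the highest. Mir6944 fills a 96-base intron of Dbn1, which encodes drebrin, an actin-binding protein of dendritic spines, and had 253 and 452 counts, or 73.8 and 78.6 CPM. Mir1981 fills an 82-base intron of Marc2 and had 220 and 369 counts, or 64.1 CPM in both libraries. Mir3102 fills a 104-base intron of Arhgef17 and had 120 and 243 counts, or 34.99 and 42.2 CPM. Mir1224 fills an 85-base intron of Vwa5b2 and had 129 and 221 counts, or 37.6 and 38.4 CPM. These 4 stood between 34.99 and 78.6 CPM in every library, and Mir877, at 73.5 and 76.3 CPM, lay near the top of that range. The other 6 whole-intron members were low, from Mir3547 at 7.44 CPM to Mir7080 at 0.67 CPM. The 10 whole introns were 67 to 104 bases long.

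Members that met only the 3′ end of an intron had a median of 1.22 CPM, against 6.22 CPM for the 10 whole-intron members and 2.50 CPM for the 121 members at no intron end. The highest were Mir3064, of Ddx5, an RNA helicase gene, at 17.2 ± 1.68 CPM, and Mir3097, of Rgs12, at 10.9 ± 0.568 CPM, both above the 6 lower whole-intron members. Their introns were 77 to 36269 bases long, with a median of 412. All 89 intron-end members together held 6.47% of the members' counts.

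**Figure D3:**
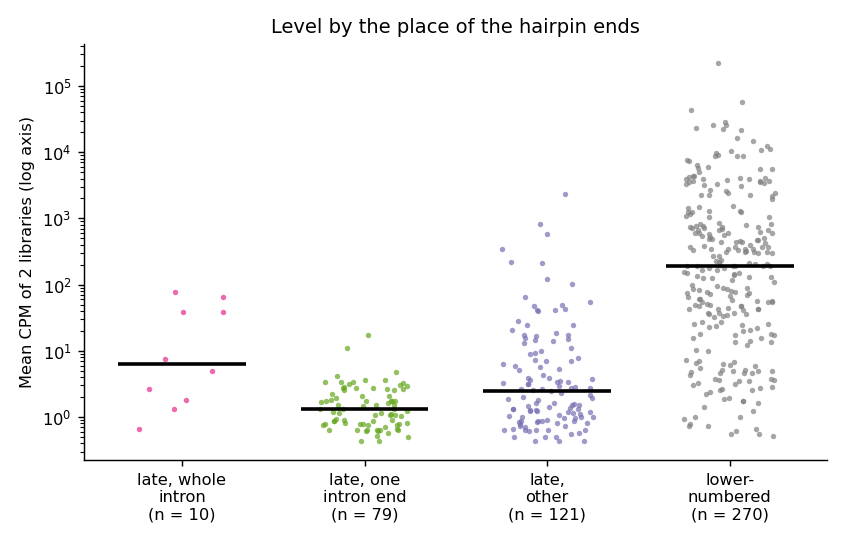
Mean CPM of each gene, on a log axis, by where the hairpin ends fall. Each dot is 1 gene, bars are medians, and the 3 groups to the left are members that fill an intron, meet 1 intron end only, or meet none. Whole-intron members reach 76.2 CPM, those at 1 end reach 17.2 CPM, and the lower-numbered genes have a median of 188 CPM.

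The intron-end members came mostly from 2 blocks of numbers. Among members numbered 6000 to 6999, 41 of 51 (80.4%) met an intron end, and among those numbered 7000 to 7999, 36 of 57 (63.2%). Among those numbered 1000 to 1999 it was 4 of 30, and among those numbered 3000 to 3999 it was 7 of 41. The share of listed genes that became members ran from 25% for the 2000s and 8000s to 58.6% for the 3000s, where 41 of 70 passed. The median level of members was 5.78 CPM in the 3000s, 4.45 CPM in the 1000s, 1.39 CPM in the 6000s and 1.16 CPM in the 7000s.

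The sequences of the members followed the positions. Hairpins ended in AG in 85 of the 89 intron-end members (95.5%), in 3 of the other 121 and in 23 of 270 lower-numbered genes (8.52%). Over all 1894 miRNA genes with a hairpin sequence, 278 did so (14.7%). Of the 3p mature forms, 65 of 80 (81.3%) ended in AG where the hairpin met the 3′ end of an intron, against 7 of 75 in other members and 16 of 225 lower-numbered forms (7.11%). An intron ends in AG by the splicing rule, so the letters are not independent of the position. miR-3064-3p, which ends in CA, is one of the exceptions, and its hairpin ends 1 base away from the intron end.
mmu-miR-3064-3p: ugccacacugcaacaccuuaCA

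RefSeq listed mature forms for 196 of the 210 members, 341 in all, and for 240 of the 270 lower-numbered genes, 452 in all. The first base was U in 39.6% of the members' forms and in 36.1% of the lower-numbered ones. Median G+C content was 58.3% against 47.6% in mature forms and 56.1% against 48.2% in hairpins. Hairpins had a median length of 73 bases against 85, and their predicted folding energy per base was nearly the same, -0.435 against -0.433 kcal/mol. In no member were all mature forms also found inside another hairpin of the tables. This held for 6 lower-numbered genes (2.5%) and for 44 of all 916 miRNA genes with a mature form (4.80%). Reads that map to several places are given to no gene, so the minimum count itself works against such genes. The value of the members is therefore no trait of late numbers. Hairpins of genes without a row in the tables were not searched.

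Few seeds of the members were shared with lower-numbered miRNAs. Genes in neither group, let-7 among them, were not part of this comparison, and no like share was computed for the lower-numbered forms. Of 341 mature forms, 19 (5.57%) shared bases 2 to 8 with some lower-numbered miRNA of the tables, Mir1983 among them, and 13 (3.81%) did so with one of the 270 in the comparison group. The highest member among those 13 was Mir3475, whose 5p form shares AAUCAUG with miR-96-3p. Seeds were also shared between members, among them UUCCUCU, in miR-3059-5p and miR-5616-5p, and CUGGCUG, in miR-3064-5p and miR-3085-3p. The first pair is led by Mir3059 and the second by Mir3064.

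Agreement between the libraries was measured as the log2 ratio of replicate 2 over replicate 1, after TMM scaling and with a pseudocount of 1 CPM, which draws the ratios of low genes toward 0. Over the 148 members of at least 1 CPM the median absolute log2 ratio was 0.31, against 0.16 over 260 lower-numbered genes and 0.16 over all 474 genes at that level. The counts behind these values differed: the median summed count was 27 for the members and 1795.5 for the lower-numbered genes. Ratios of more than 2-fold were seen in 16 members and 6 lower-numbered genes.

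Within ranges of level the order was not the same. From 1 to 10 CPM the medians were 0.41 over 111 members and 0.39 over 43 lower-numbered genes. From 10 to 100 CPM they were 0.12 over 29 members and 0.19 over 65 lower-numbered genes. At 100 CPM and over they were 0.033 over 8 members and 0.13 over 152 lower-numbered genes. All 37 members of at least 10 CPM lay within 1.5-fold, as did 209 of 217 lower-numbered genes (96.3%).

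**Figure D4:**
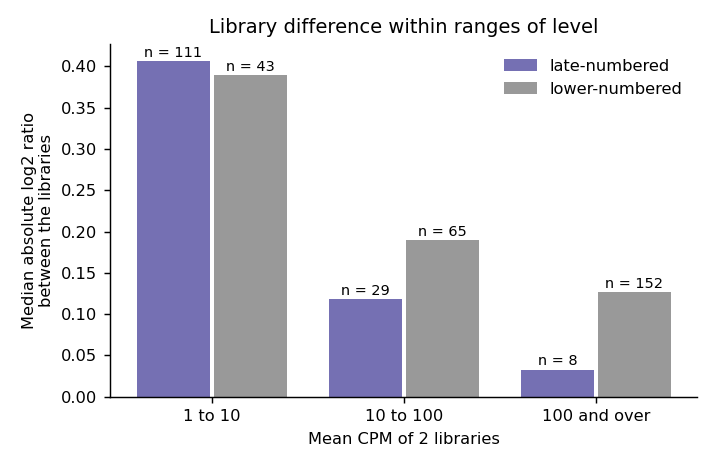
Median absolute log2 ratio between the libraries within 3 ranges of mean CPM, for late-numbered and lower-numbered genes, with the number of genes above each bar. The bars are near each other from 1 to 10 CPM, at 0.41 and 0.39, and the late-numbered bar is lower in the other ranges.

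The ratios leaned to neither library by much. The signed median was 0.034 over members of at least 1 CPM, with 82 of 148 higher in replicate 2, and -0.025 over lower-numbered genes, with 120 of 260 higher there. Over all genes of that level it was -0.0023.

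**Figure D5:**
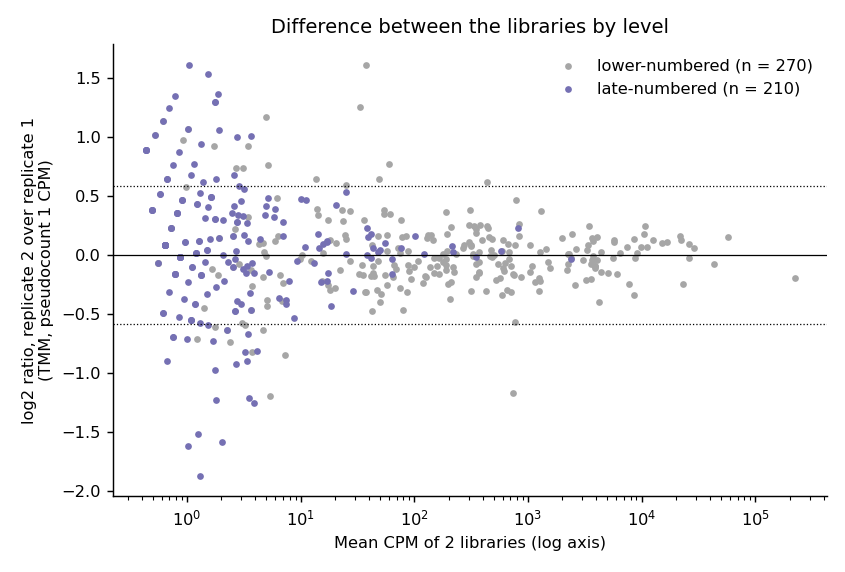
log2 ratio of replicate 2 over replicate 1 against mean CPM on a log axis, 1 dot per gene. Dotted lines mark 1.5-fold. The late-numbered genes spread widely below 10 CPM and lie inside the dotted lines above it, where 8 of 217 lower-numbered genes lie outside.

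Single genes were tested with an exact binomial test on the counts, adjusted over the 717 genes with a count, which compares these libraries and covers counting error only. It called 142 genes, 19.8% of those tested. Those called toward replicate 2 were 9.76% of all tested, and those toward replicate 1 were 10%. Of the members 10 of 210 (4.76%) were called, 4 of them toward replicate 2 and 6 toward replicate 1, against 107 of 270 lower-numbered genes (39.6%). The share of members was below the background, at a median summed count of 16 against 1718.5 in the lower-numbered group. At an unadjusted p under 0.05 there were 24 members. With edgeR's exact test and a fixed coefficient of variation of 10% between libraries, 0 members and 3 lower-numbered genes were called. The common estimate from these same libraries was 10.3%. The fixed value thus sets each gene against about the spread seen between them.

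Mir1298 was the one highly counted member among the 10. It was higher in replicate 2 by 0.23 on the log2 scale, with an adjusted p of 6.33e-10 by the exact binomial test. Mir3080, in an intron of Tcf20, a transcriptional regulator gene, had 68 and 172 counts, or 19.8 and 29.9 CPM, and a log2 ratio of 0.54 (adjusted p = 0.0328, same exact test). The other 8 had 7 to 31 counts in all and were named after their values were seen. Mir5618 (20 and 11 counts), Mir6240 (18 and 10), Mir5126 (12 and 3), Mir5132 (8 and 1), Mir2137 (9 and 0) and Mir7053 (7 and 0) were higher in replicate 1, the smaller library. Mir7064 (1 and 16 counts) and Mir3101 (0 and 12) were higher in replicate 2.

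Groups of genes chosen with the earlier results known are given as counts. Over all tested genes 19.8% were called by the exact binomial test, and the groups are too small to set against that share. Of the 3 Htr2c members 1, Mir1298, was called. Of a hand-picked list of 14 genes whose number is also used for a human miRNA, 10 were in the tables. Of the 14, 9 were members and 1 was called, with a median log2 ratio of 0.026 over the 9. The 3 members taken as known mirtrons, Mir1224, Mir1981 and Mir3102, were counted in both libraries and none was called, by either test. Neither Mir1843a nor Mir1843b has a row in the tables under that name.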

How the data were processed

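The data are 2 small RNA libraries of mouse midbrain. The authors deposited whole read counts per miRNA gene and library, not normalized, in 3 columns: either strand, sense strand and opposite strand. Per the deposited readme, reads were aligned to mm10 with GENCODE M4; no source used here names the aligner or the counter. The sense column was used. Symbols and positions came from GENCODE M21 on the same assembly, which matched 1894 of 1973 identifiers. The genes counted late or lower-numbered have Mir and a number as their symbol, and 931 genes with neither, let-7 among them, are in no group.

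Hosts and introns are those of any M21 transcript on the same strand. CPM used the sense total of genes, and rows that name no gene stayed out of it. Ratios used TMM of edgeR 4.0.16 in R 4.3.3. The two-sided exact binomial test (SciPy 1.17.1) had Benjamini-Hochberg adjustment and a threshold of 0.05, and was tested on simulated data. The simulated counts held counting error only, as the test assumes. They could not show how the test behaves with further spread between libraries. With 1 group there is no contrast for edgeR's quasi-likelihood test, and p-values measure only differences between these libraries. Folding energies came from RNAfold 2.7.2. Named genes were the 25 of highest mean CPM, up to 4 of highest mean CPM per position class, at intron ends and per list, members of at least 10 CPM that were called, and those with more opposite-strand than sense counts; other members named were chosen after their values were seen. Members and lists were chosen with earlier results of these data known. Alternatives were other minimum sums, count columns, scalings (DESeq2 1.42.0 size factors, total counts), pseudocounts, filters, host rules and intron-end distances.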

Additional observations from a re-analysis of the deposited data

Results flagged for a closer look

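Opposite-strand counts, which the levels above do not use, exceeded 3 counts in both libraries for 3 members. Mir3074-1 had 28 in replicate 1 and 36 in replicate 2. Mir7654, which overlaps coding sequence of Arglu1, had 7 and 13, beside 8 and 19 on the sense strand. Mir5620, in no host, had 4 and 15, beside 3 and 5 on the sense strand, and was the 1 member with more opposite-strand than sense counts. No cause was tested, and the opposite-strand counts of Mir7654 and Mir5620 are few.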

How the results depend on the processing

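The count of members was 48 at a minimum sum of 50, and their share of sense counts was then 0.574%; at a minimum of 10 there were 141, and 216 with the chromosome 12 stretch kept. The share ran from 0.586% to 0.615% when either library was left out. The median absolute log2 ratio of 0.307 became 0.316 with total counts, 0.411 and 0.103 with pseudocounts of 0.1 and 10 CPM, 0.325 without a filter, 0.107 at 10 CPM or more and 0.304 with both strands counted. The signed median of 0.0345 became 0.0613, 0.0367, 0.0177, 0.0858 and 0.0569 under the first 5 of these. Called members went from 10 to 0 with edgeR's exact test, which by construction allows a spread of 10% between libraries. Requiring both hairpin ends at an intron left 10 of 89. Leaving out retained-intron transcripts, an alternative chosen after seeing the data like the last one, left 43 of 53 exonic members. The levels of 8 of 27 named members moved by more than their SD with both strands counted, by 209% at most, in Mir5620. Of these 8 only Mir5620 had opposite-strand counts. The others fell slightly and had small SDs, as Mir1983, from 2369 to 2315 CPM with an SD of 0.534 CPM. No paired analysis was possible because there is 1 group. Members of 1 to 10 CPM rest on a median of 20 reads over both libraries, which limits what their ratios can show.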
